A study of Mus musculus with 10 samples.

Results

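The genes described here are the lambda light chain genes Iglv1, Iglv2, Iglv3, Iglc1, Iglc2 and Iglc3 and the kappa constant gene Igkc. They were picked by symbol and not by a cut-off on measured values, though earlier results of these data were known. Of these 7 genes, 6 were quantified among the 22380 genes of the files, and Iglv3 was not analysed here. Their RNA was measured in germinal center B cells in 10 libraries, which the labels number as replicates without naming the mice. ZBTB38 WT mice (Zbtb38fl/fl, no Cre) gave 2, ZBTB38 HET mice (Zbtb38fl/+ x Vav-Cre) gave 2 and ZBTB38 KO mice (Zbtb38fl/fl x Vav-Cre) gave 6, all of the C57Bl6/N strain. Vav-Cre acts mainly in hematopoietic cells, so deletion was not limited to B cells, and all floxed alleles go back to 1 founder. Cre was present in the HET and KO mice and absent from the WT mice. The labels call the cells untreated, whereas the study's methods describe mice immunized 2 weeks earlier with NP-OVA (the hapten NP on ovalbumin) in alhydrogel and B cells sorted as NP-binding, GL7+ and IgD-. The mice's ages and the days on which libraries were made were not given in the sources used here. The comparisons asked whether lambda and kappa usage in these cells differed between genotypes.

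Each B cell makes an antibody from heavy chains and 1 kind of light chain, kappa or lambda. A light chain messenger RNA joins a rearranged variable segment and a joining segment to a constant gene, so the constant genes can be read as tallies of the kappa and lambda messages in a sample. Most mouse B cells use kappa. Germinal center B cells that bind NP in C57BL/6 mice are a known exception, since the early response is rich in lambda1 chains (Iglv1 with Iglc1) paired with the heavy chain variable gene Ighv1-72, also called VH186.2.

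In the Gencode annotation of GRCm38, Igkc (ENSMUSG00000076609.2) is a single exon at chr6:70726435-70726966 on the plus strand. The lambda genes lie on the minus strand of chromosome 16. Iglc1 (ENSMUSG00000105906.1) is 1 exon at chr16:19061618-19062071 and Iglc3 (ENSMUSG00000105547.1) is 1 exon at chr16:19065230-19065681. Iglv1 (ENSMUSG00000076934.2) spans chr16:19085017-19085500 in 2 exons, Iglc2 (ENSMUSG00000076937.3) spans chr16:19198396-19200351, and Iglv2 (ENSMUSG00000076940.3) spans chr16:19260401-19260859.

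How well reads can be told apart between these genes depends on their sequence. The stretches that follow are reference coding sequence, 5′ to 3′, from transcripts of this annotation. Each set is the window of 30 bases with the most differences, so it shows more difference than the genes have on average. The first set shows the same aligned 30 bases of the 3 lambda constant genes, with each of the 13 positions that is not the same in all of them in capitals.
Iglc1: tgtACgatCAcTGaTttCtAcccAGgtgTG
Iglc2: tgtCTgatTTcCAaCttTtCcccGAgtgGT
Iglc3: tgtCTgatTTcCAaTttTtCcccAAgtgGT
The second set is a stretch in which the near-identical pair Iglc2 and Iglc3 differ at 3 positions, again in capitals.
Iglc2: ctcccacTctcaccGtgtttccaccttccT
Iglc3: ctcccacActcaccAtgtttccaccttccC
The third set is a stretch of the variable genes, chosen in the same way, in which they differ at 3 positions.
Iglv1: ctctctcctggctctcAgctcaggGgccaT
Iglv2: ctctctcctggctctcTgctcaggAgccaG
The last set sets kappa against lambda constant sequence, with the 17 differing positions in capitals.
Igkc: ccAtccAGtgaGCagTtAACATctGGAGGT
Iglc1: ccTtccTCtgaAGagCtCGAGActAACAAG

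Iglc2 and Iglc3 differed at 11 of 317 aligned coding bases (96.5% identity), and Iglv1 and Iglv2 at 11 of 351 (96.9% identity). Iglc1 was 74.7% identical to Iglc2 and 75.3% identical to Iglc3, and Igkc was 58.8% identical to Iglc1. Of all 31-base words in each gene's quantified transcripts, those found in no other gene made up 100% for Igkc, 99.8% for Iglc1, 80.4% for Iglc2, 74.9% for Iglc3, 63.2% for Iglv1 and 63.5% for Iglv2. The sum over the lambda constant genes is therefore better separated than the split between Iglc2 and Iglc3, and reads of Iglv1 and Iglv2 may be divided between them by the quantification. These sequences are unmutated, while the variable segments of germinal center B cells carry somatic mutations.

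The libraries held between 26612431 and 41059082 estimated counts each. Zbtb38 itself was 164 and 152 CPM (estimated counts scaled to a common library size) in the ZBTB38 WT libraries, 117 and 106 CPM in the HET libraries, and between 18.5 and 50.1 CPM in the KO libraries, in the order of the gene copies left intact. These are sums over the whole gene, while only the floxed exon was deleted. Within that exon the paper reports a complete loss of transcripts in KO. Summed germinal center markers were 2550 and 2687 TPM in WT, 3126 and 3134 TPM in HET and 1955 to 3331 TPM in KO, and 8 of the 10 markers, Rgs13 (290.1 TPM) and Gcsam (129 TPM) among them, were lowest in KO replicate 6. TPM corrects for transcript length and library size and is the scale of all levels given here unless CPM is named. KO replicate 6 stood apart in its immunoglobulin genes and is reported with and without its value where a result rests on it. In bulk RNA, fewer cells of a type and less RNA per cell cannot be told apart.

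Igkc, which encodes the kappa constant region, was the gene with the highest mean level of all 22380 and ranked first or second in every library. It was at 19453 and 18307 TPM in the WT libraries, at 14485 and 12446 TPM in the HET libraries, and in the KO libraries ran from 15273 TPM through a median of 19856 TPM to 27454 TPM in replicate 6. Both HET libraries were below all 8 others, and the WT libraries lay inside the KO range. Such a pattern, with every HET library below every KO library, was found for 3.71% of the 14354 genes tested, and Igkc was the only one of the 6 genes to show it. The mean was 18880 ± 810 TPM in WT (SD, n = 2), 13466 ± 1442 TPM in HET (SD, n = 2) and 19797 ± 4440.4 TPM in KO (SD, n = 6). Without KO replicate 6 the KO mean was 18266 ± 2656 TPM (SD, n = 5).

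Iglc1, the constant region of lambda1 chains, was the most abundant lambda constant gene. It was at 8893 and 9378 TPM in WT, at 6435 and 8377 TPM in HET, and in KO ran from 4650 TPM in replicate 6 through a median of 7266 TPM to 11473 TPM in replicate 3. The WT libraries differed by little (mean 9136 ± 343 TPM, SD, n = 2), whereas the KO libraries spanned more than the other groups together (7784 ± 2425 TPM, SD, n = 6, and 8411 ± 2099 TPM, SD, n = 5, without replicate 6).

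Iglv1, the variable segment that joins Iglc1 in lambda1 chains, had its highest and lowest values in the same libraries. It was at 10145 and 10271 TPM in WT, at 6890 and 9424 TPM in HET, and in KO ran from 4086 TPM in replicate 6 through a median of 7362 TPM to 13197 TPM in replicate 3. The KO mean was 8362 ± 3324 TPM (SD, n = 6) and, without replicate 6, 9218 ± 2885 TPM (SD, n = 5). By mean level over the 10 libraries Iglv1 ranked 6 and Iglc1 ranked 7 among all genes. Iglv1 was above Iglc1 in 8 of 10 libraries, with KO replicates 1 and 6 as the exceptions. The ratio of Iglv1 to Iglc1 stayed between 0.879 and 1.17, and the difference between these neighbours in the order of levels was not tested.

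Iglc3 and Iglc2, the constant regions of lambda3 and lambda2 chains, were lower. Iglc3 was at 3441 and 3407 TPM in WT, at 2839 and 3081 TPM in HET, and in KO ran from 2692 TPM through a median of 3683 TPM to 4293 TPM in replicate 1. Iglc2 was at 2501 and 3285 TPM in WT, at 1732 and 2264 TPM in HET, and in KO ran from 1926 TPM through a median of 2707 TPM to 3962 TPM in replicate 6. For both genes the HET libraries were below the WT libraries and the KO range took in both WT libraries. In all, 5 of the 6 genes had both HET libraries below both WT libraries, the exception being Iglv2, a pattern that 25.8% of all 14354 genes tested showed. None of the 6 separated WT from KO. Of all 14354 genes, 5.29% had every KO library below both WT libraries and 1.48% had both WT libraries below every KO library. These shares are small, so the lack of separation does not set the 6 genes apart.

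Iglc3 was above Iglc2 in all 10 libraries as deposited, but this order depended on transcript length. Between 87.0% and 96.4% of the counts of Iglc2 were placed on the longer of its transcripts, whose first exon (chr16:19200198-19200351) contains the joining segment Iglj2. With all counts of Iglc2 on its shorter transcript instead, an alternative chosen after seeing the data, Iglc2 was above Iglc3 in 8 of 10 libraries. The order of these neighbours is therefore not settled by the data.

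Iglv2, the variable segment of lambda2 chains, was the lowest of the genes. It was at 1364 and 1776 TPM in WT, at 1041 and 1811 TPM in HET, and in KO ran from 962 TPM through a median of 1358 TPM to 1764 TPM in replicate 4. Its highest value was in a HET library and its lowest in a KO library, and it ranked 78 by mean level. Mean levels fell in the order Igkc, Iglv1, Iglc1, Iglc3, Iglc2 and Iglv2. Iglc1 was above Iglc3 and Iglc2 above Iglv2 in all 10 libraries.

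**Figure D1:**
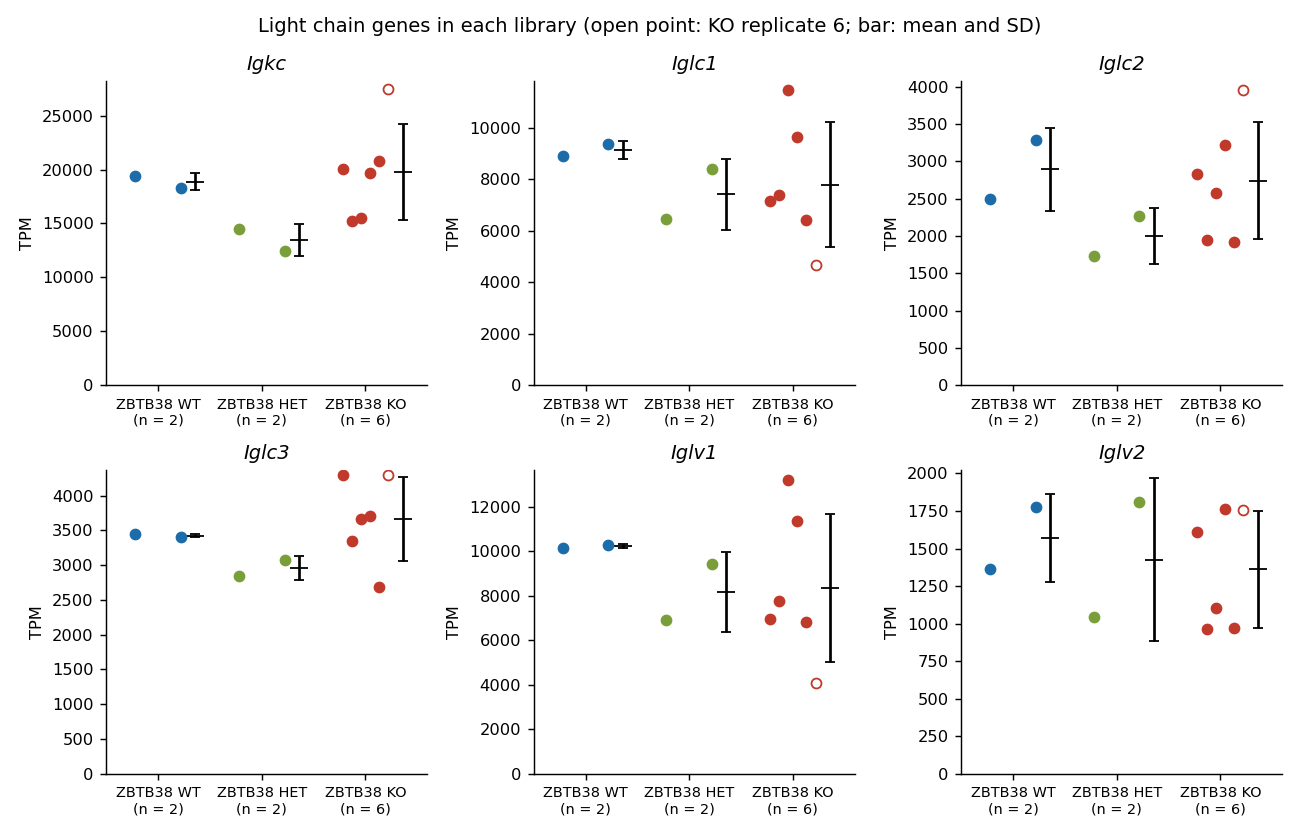
TPM of the 6 light chain genes in each library (points) by genotype, with the mean and SD of each group beside the points and KO replicate 6 as an open point. Both HET libraries lie below the other 8 for Igkc, KO replicate 6 has the highest Igkc and the lowest Iglc1 and Iglv1, and the KO points span the widest range for Iglc1 and Iglv1.

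The difference of each gene between genotypes was tested on counts with edgeR's quasi-likelihood test over all genes, and a gene was called at a Benjamini-Hochberg adjusted p under 0.1. None of the 6 genes was called in any of the 4 comparisons by edgeR, DESeq2 or limma, and 1 of the edgeR tests of these genes had an unadjusted p under 0.05. As background, 0.00704% of the 14203 genes tested were called between WT and KO (Zbtb38 itself), 0.00749% of 13347 between WT plus HET and KO (again Zbtb38), and 0.00697% of 14354 between HET and KO and between WT and HET (1 gene each). So few genes passed anywhere that a count of 0 among 6 genes does not set the light chain genes apart.

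Between WT and KO the log2 fold changes (WT over KO) ran from -0.25 for Iglc3 (standard error 0.263) to 0.19 for Iglv1 (standard error 0.299), with an edgeR adjusted p of 0.999 for each of the 6 genes. With the HET libraries added to the controls they ran from -0.45 for Igkc (standard error 0.227, edgeR adjusted p = 0.744) to 0.03 for Iglv1 (standard error 0.234, edgeR adjusted p = 0.987). These comparisons share the same KO libraries and the same WT libraries and are not independent of each other.

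The test with an unadjusted p under 0.05 was that of Igkc between HET and KO, at -0.72 on the log2 scale (standard error 0.279, edgeR adjusted p = 0.434). Its unadjusted edgeR p was 0.0239. Without KO replicate 6 the value was -0.56 (edgeR adjusted p = 0.35). Under the other settings and tools the adjusted p of this difference was between 0.177 (DESeq2) and 0.647 (limma on log2(TPM + 1)). In the same comparison the lambda genes ran from -0.63 for Iglc2 (standard error 0.311) through -0.48 for Iglc3, -0.20 for Iglc1 and -0.15 for Iglv1 to -0.12 for Iglv2 (standard error 0.347). All 6 genes were lower in HET than in KO by their fitted values, none past the threshold, with a median of -0.07 over all genes tested. Between WT and HET all 6 were higher in WT, from 0.15 for Iglv2 (standard error 0.422) to 0.56 for Iglc2 (standard error 0.368, edgeR adjusted p = 0.855), against a median of 0.01 over all genes.

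**Figure D2:**
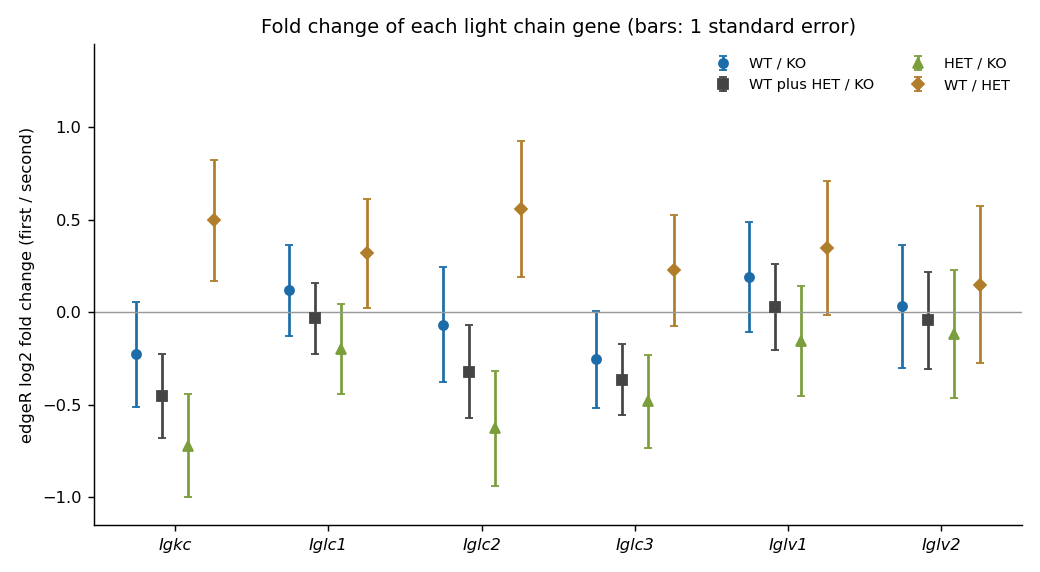
edgeR log2 fold changes (first group over second) of the 6 light chain genes in the 4 comparisons, with bars of 1 standard error. The values run from -0.72 for Igkc between HET and KO to 0.56 for Iglc2 between WT and HET, and none had an adjusted p under 0.1.

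The ratio of summed lambda constant TPM (Iglc1, Iglc2 and Iglc3) to Igkc TPM measures light chain usage within a library, so it does not depend on library size. It was 0.763 and 0.878 in the WT libraries, 0.760 and 1.10 in the HET libraries, and in the KO libraries 0.711, 0.830, 1.14, 0.843, 0.529 and 0.470 for replicates 1 to 6. The HET libraries fell on either side of the WT libraries, and the KO libraries held the highest and the lowest values of all. Lambda message exceeded kappa message in HET replicate 2 and KO replicate 3, and kappa exceeded lambda in the other 8. This depended on the scale, since by counts the ratio was 0.902 and 0.927 in those 2 libraries and kappa exceeded lambda in all 10, and by counts per annotated length only KO replicate 3 exceeded 1.

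The lambda share of all light chain constant TPM was 45.0% ± 2.46 in WT (SD, n = 2), 47.8% ± 6.55 in HET (SD, n = 2) and 42.1% ± 7.86 in KO (SD, n = 6). Without KO replicate 6 the KO share was 44.1% ± 6.82 (SD, n = 5). Over the 10 libraries it ran from 32.0% to 53.3%. By counts instead of TPM the share ran from 29.2% to 48.1%, and the 95% Wilson intervals of single libraries were at most 0.517 percentage points wide, covering counting error only.

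**Figure D3:**
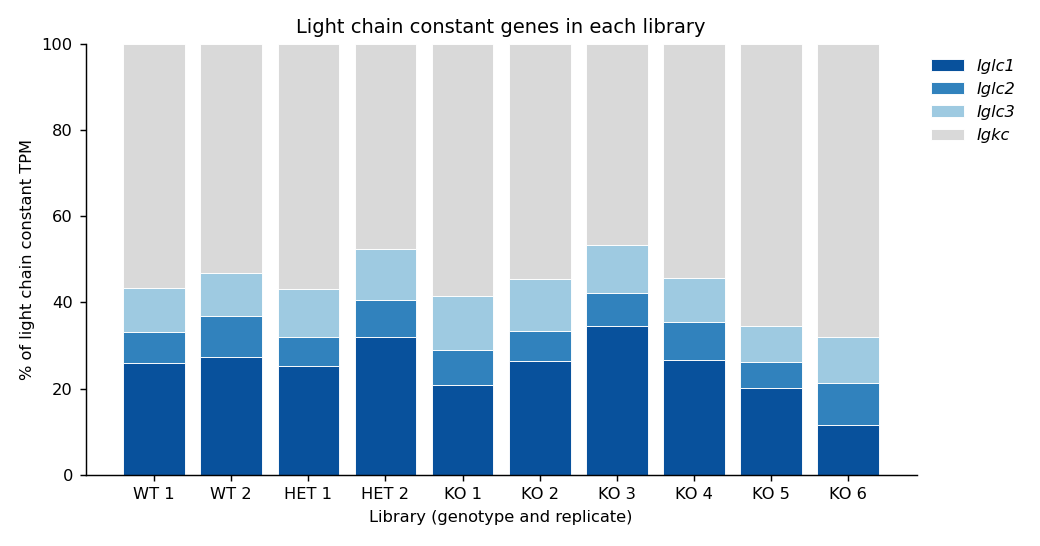
Share of light chain constant TPM (percent) taken by Iglc1, Iglc2, Iglc3 and Igkc in each library. Lambda genes together take between 32.0% (KO replicate 6) and 53.3% (KO replicate 3), and Iglc1 is the widest lambda band in every library. The latter depends on the scale, since by CPM Iglc2 was above Iglc1 in KO replicate 6 (1243 against 973).

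The log2 ratio of lambda to kappa constant TPM was -0.29 ± 0.14 in WT (SD, n = 2), -0.13 ± 0.38 in HET (SD, n = 2) and -0.47 ± 0.47 in KO (SD, n = 6). The ratio was 1.13-fold higher in WT than in KO, a difference of 0.18 on the log2 scale (two-sided exact permutation test over libraries, p = 0.679). With WT and HET pooled (n = 4) it was 1.20-fold higher than in KO (log2 difference 0.26, exact permutation p = 0.343). Between HET and KO the log2 difference was 0.34 (exact permutation p = 0.50) and between WT and HET it was -0.16 (exact permutation p = 1.00). Without KO replicate 6, WT exceeded KO by 0.06 and WT plus HET exceeded KO by 0.14 on the log2 scale (exact permutation p = 0.762 and 0.571).

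These designs limit what could be seen. The smallest p that the permutations can give was 0.0357 for 2 against 6 libraries, 0.00476 for 4 against 6, and 0.333 for 2 against 2, where no difference could pass 0.05. Over the 16 ratio comparisons made here, Benjamini-Hochberg adjusted values were between 0.905 and 1.00, and in none of the 16 did the 2 groups separate. A p above the threshold does not show that the ratios are equal: the WT against KO difference ran from 0.06 to 0.31 on the log2 scale when each library was left out in turn.

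**Figure D4:**
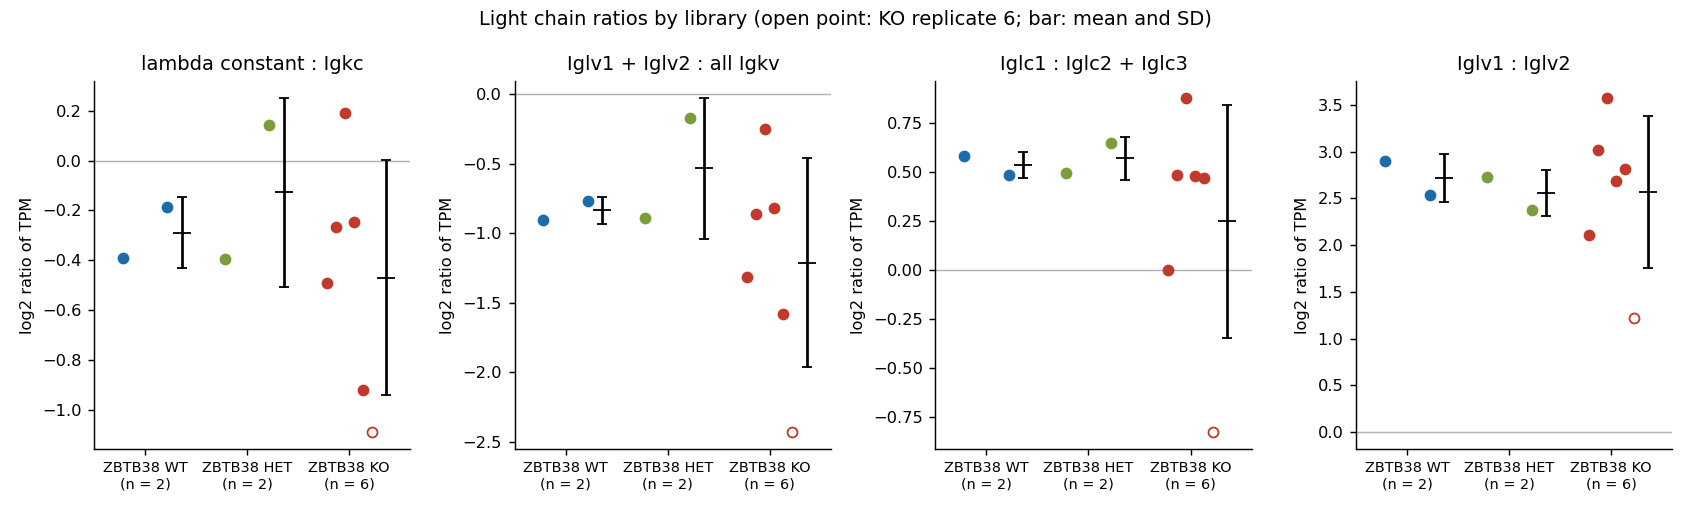
log2 ratios of TPM in each library (points) with the mean and SD by genotype, for lambda constant to Igkc, Iglv1 plus Iglv2 to all Igkv, Iglc1 to Iglc2 plus Iglc3, and Iglv1 to Iglv2. KO replicate 6 (open point) has the lowest value of all libraries in each of the 4 panels, and the genotypes overlap in each.

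The variable genes gave a second reading of the same usage. The ratio of Iglv1 plus Iglv2 TPM to the summed TPM of the 101 kappa variable (Igkv) genes was 0.534 and 0.588 in WT, 0.538 and 0.885 in HET, and in KO ran from 0.186 in replicate 6 through a median of 0.475 to 0.839 in replicate 3. HET replicate 2 and KO replicate 3 were again the 2 highest libraries and KO replicates 5 and 6 the 2 lowest. On the log2 scale WT exceeded KO by 0.38 (exact permutation p = 0.536), WT plus HET exceeded KO by 0.53 (exact permutation p = 0.238), HET exceeded KO by 0.68 (exact permutation p = 0.321), and WT and HET differed by -0.30 (exact permutation p = 0.667). Without KO replicate 6 the difference of WT plus HET from KO was 0.28 (exact permutation p = 0.365).

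Across the 10 libraries the log2 constant ratio and the log2 variable ratio moved together (Pearson r = 0.968, permutation p = 1e-05, the smallest that 100000 permutations can give; Spearman rho = 0.976, permutation p = 2e-05; Benjamini-Hochberg adjusted 4e-05 and 8e-05 over 4 such relations). Leaving out KO replicates 5 and 6, the 2 libraries farthest from the median, gave r = 0.964. The 2 ratios come from separate genes but from the same libraries, and a light chain message holds both a variable and a constant segment. Kappa variable and kappa constant TPM kept a ratio between 1.02 and 1.18 in all libraries, lowest in both HET libraries. Lambda variable to lambda constant TPM varied more, from 0.453 in KO replicate 6 and 0.5999 in KO replicate 1 to 0.819 in HET replicate 2.

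**Figure D5:**
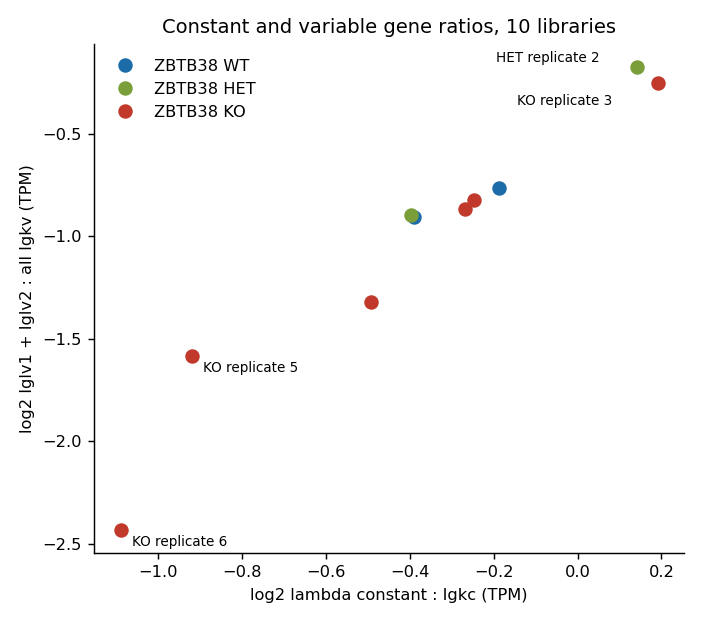
log2 of Iglv1 plus Iglv2 TPM over Igkv TPM against log2 of lambda constant TPM over Igkc TPM, 1 point per library, coloured by genotype. The points rise together (r = 0.968, n = 10), with KO replicates 5 and 6 at the low end and HET replicate 2 and KO replicate 3 at the high end.

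Within the lambda constant genes, Iglc1 made up 59.9% and 58.4% of their TPM in WT, 58.5% and 61.05% in HET, and from 36.04% in replicate 6 through a median of 58.2% to 64.8% in replicate 3 in KO. Apart from these 2 and KO replicate 1 (50.02%), the libraries lay between 58.1% and 61.05%. The WT and HET libraries were all in that range, whereas the KO libraries spread beyond it on both sides. The ratio of Iglc1 to Iglc2 plus Iglc3 was 1.496 and 1.401 in WT, 1.41 and 1.57 in HET, and from 0.563 to 1.84 in KO. It exceeded 1 in 9 of 10 libraries, though in KO replicate 1 only at 1.0007. In that library it was 0.815 by counts and 0.925 by counts per annotated length, so the count depends on the scale. The log2 difference was 0.29 between WT and KO (exact permutation p = 0.464) and 0.07 without KO replicate 6 (exact permutation p = 0.524).

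Iglv1 to Iglv2 gave the same ends: 7.44 and 5.78 in WT, 6.62 and 5.20 in HET, and in KO from 2.33 in replicate 6 through a median of 6.73 to 11.9 in replicate 3. WT and KO differed by 0.14 on the log2 scale (exact permutation p = 0.857), and by -0.13 without KO replicate 6 (exact permutation p = 0.714), so the direction rests on that library. In KO replicate 6, Iglc2 took 30.7% of lambda constant TPM, against 14.6% to 20.4% in the other 9 libraries.

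The remaining lambda segments were low or could be read only in part. Iglc4, a lambda constant segment, was between 11.2 and 32.0 TPM. Of the lambda joining segments, which are too short to be well quantified, Iglj2 and Iglj4 were listed at 0 in every library, and Iglj1, Iglj3 and Iglj3p were highest in KO replicate 6 (3251, 1304 and 1185 TPM). Of the 6 segments 4 could be tested, and 0 were called by edgeR or DESeq2 in any comparison, with no unadjusted edgeR p under 0.05. The surrogate light chain genes, which pair with heavy chains in precursor B cells before light chains are made, were low apart from Vpreb3 (530 to 820 TPM): Igll1 was between 4.57 and 52.2 TPM, Vpreb1 between 0.0630 and 23.5 TPM and Vpreb2 at most 3.08 TPM. None of the 4 was called by edgeR or DESeq2, and none had an unadjusted edgeR p under 0.05.

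The kappa side was described by its joining and variable genes. All 5 kappa joining genes were highest in KO replicate 6, with Igkj5 at 2828 TPM and Igkj1 at 2578 TPM there. Their values were coarse, with Igkj4 and Igkj5 both at 1581 TPM in WT replicate 1, and are a rough reading of kappa level. None of the 5 was called by edgeR or DESeq2, and Igkj1 had the only unadjusted edgeR p under 0.05 (HET over KO, log2 fold change -0.94, standard error 0.431, unadjusted p = 0.0498). Of the 101 Igkv genes 100 were tested between HET and KO, and 0 were called by edgeR. At an unadjusted edgeR p under 0.05, 34 were lower and 0 higher in HET, beside 683 lower and 784 higher among all 14354 genes, with a median log2 fold change of -1.13 over the 100 against -0.07 over all genes. DESeq2 called 20 of 99 as lower and 0 as higher (515 of 17378 genes in all, either direction), and edgeR without KO replicate 6 called 1 as lower. Between WT and HET, 20 Igkv genes were higher in WT and 0 lower at an unadjusted edgeR p under 0.05 (572 higher and 350 lower among all 14354 genes), with a median of 0.70 against 0.01 over all genes. Of these genes 0 were called by edgeR, 2 by edgeR without KO replicate 6, and 8 of 99 by DESeq2 (185 of 17378 genes in all).

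Summed over all Igkv genes, the level was 21549.6 and 20492 TPM in WT, 14741.5 and 12690.4 TPM in HET, and in KO from 15928 TPM through a median of 22262 TPM to 31474 TPM in replicate 6. As for Igkc, both HET libraries were below all others. Single Igkv genes varied widely between libraries. Igkv14-111, the highest on average, ran from 677 TPM in WT replicate 2 to 3344 TPM in HET replicate 1, and Igkv17-127 from 233 TPM in KO replicate 1 to 3761 TPM in WT replicate 1. Igkv6-15 and Igkv19-93 were highest in KO replicate 6 (2483 and 1679 TPM). Between WT plus HET and KO, 18 of 96 Igkv genes were lower and 0 higher at an unadjusted edgeR p under 0.05 (301 lower among all 13347), 0 were called by edgeR and 1 by DESeq2. Between WT and KO, 4 of 99 were lower and 0 higher by the same measure (142 lower among all 14203) and 0 were called by either tool.

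The heavy chain genes that pair with these light chains showed where KO replicate 6 departed. Ighv1-72 was at 2626 and 2400 TPM in WT, at 1587 and 2054 TPM in HET, and in KO from 468 TPM in replicate 6 through a median of 1873 TPM to 2978 TPM in replicate 4. The ratio of Ighm (the IgM constant region) to Ighg1 (that of IgG1) was 39.9 in KO replicate 6 and between 1.29 and 3.69 in the other 9 libraries. In the same library Ighm was highest (9946 TPM) and Ighg1 lowest (249 TPM, against at least 1213 TPM elsewhere). Prdm1, Sdc1, Tnfrsf17 and Fkbp11, of the plasma cell markers, were also highest in it (7.68, 12.5, 13.6 and 47.2 TPM). The rest of that list peaked in other libraries, and Slamf7 was lowest in this one (159 TPM). The list as a whole was not highest there (3059 TPM summed, against 2883 to 3559 TPM elsewhere). The part of these genes in the light chain values of that library was not tested.

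The lambda to kappa constant ratio rose with Ighv1-72 TPM over the 10 libraries (r = 0.727, permutation p = 0.0178, adjusted 0.0238; rho = 0.782, permutation p = 0.0106, adjusted 0.0212), and r fell to 0.517 without KO replicates 5 and 6, so it rests in part on those samples. It fell with the Ighm to Ighg1 ratio (r = -0.751, permutation p = 0.0069, adjusted 0.0138; rho = -0.503, permutation p = 0.145, adjusted 0.193), and r was -0.42 without KO replicates 5 and 6, so this relation rests on those samples. With summed plasma cell markers no such relation was seen (r = -0.10, permutation p = 0.783; rho = -0.04, permutation p = 0.917). Most of that sum is Jchain and Mzb1 (mean 1230 and 989 TPM). It therefore says little about Fkbp11, Sdc1, Prdm1 and Tnfrsf17 (mean 14.7, 6.11, 4.27 and 2.92 TPM), whose relation to the ratio was not tested. Of the 11 heavy chain and receptor genes (including Cd79a and Cd79b, the signalling chains of the B cell receptor), 0 were called by edgeR in any comparison with all libraries and no replicate term. Between HET and KO, 2 had an unadjusted edgeR p under 0.05, both lower in HET, and DESeq2 called the same 2 (Ighm, edgeR log2 fold change -1.11, standard error 0.37, and Ighd, the IgD constant region). Between WT and HET, Ighm and Ighd were higher and Ighg2b lower in WT at an unadjusted edgeR p under 0.05, and DESeq2 called Ighd. Igha, the IgA constant region, was lower than in KO at an unadjusted edgeR p under 0.05 in WT and in WT plus HET, and DESeq2 called none there.

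Of 14 regulators of light chain genes, which include the factors bound at light chain enhancers, 0 were called by edgeR or DESeq2 in any comparison. The most abundant were Pou2af1 (688 to 1248 TPM), a coactivator of octamer-binding factors, Spib (284 to 561 TPM), Irf8 (300 to 452 TPM) and Tcf3 (155 to 305 TPM). Pou2af1 and Spib had unadjusted edgeR p-values of 0.01015 and 0.0431 between HET and KO (log2 fold changes 0.42 and 0.31, standard errors 0.138 and 0.136), the only 2 of the list under 0.05 there. By the same measure Tcf3 was the only one between WT plus HET and KO (log2 fold change 0.27, standard error 0.0993), Pou2af1 the only one between WT and HET (-0.51, standard error 0.173), and none passed between WT and KO. Of 5 recombination and editing genes 0 were called by edgeR. Rag2, of the recombinase that joins light chain segments, was at most 2.07 TPM and Rag1 at most 1.55 TPM, and DESeq2 called Rag2 as lower in HET than in KO (edgeR log2 fold change -1.98, standard error 0.806, unadjusted p = 0.0305). Rag2 was also lower than in KO at an unadjusted edgeR p under 0.05 in WT and in WT plus HET, where DESeq2 did not call it. Ung, a uracil glycosylase that acts in class switching, was at least 2.76 TPM.

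Summed markers of other cells were lower in both HET libraries, in which kappa was lowest, than in both WT libraries, and those of germinal center B cells were higher. Summed myeloid markers (7 of 7 measured) were 517 and 453 TPM in WT, 70.6 and 55.4 TPM in HET and 44.0 to 787 TPM in KO. Summed T cell markers (9 of 9) were 308 and 324 TPM in WT, 154 and 162 TPM in HET and 151 to 245 TPM in KO. Summed naive B cell markers (8 of 8) were 952 and 1091 TPM in WT, 617 and 677 TPM in HET and 552 to 1140 TPM in KO. Summed plasma cell markers (11 of 11) were 3447 and 3202 TPM in WT, 3008 and 2883 TPM in HET and 3004 to 3559 TPM in KO. The lowest myeloid and naive B cell sums of all libraries were in KO replicate 1, where Igkc was at 20055 TPM.

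No marker was at 0 in every library, and Tnfrsf17 alone was at 0 in any (HET replicate 1). With all libraries and no replicate term, no marker was called by edgeR in any comparison, and without KO replicate 6 it called Klf2 and Trbc2 as higher in WT than in HET. Between WT and KO, 4 T cell markers and 1 naive B cell marker were higher in WT at an unadjusted edgeR p under 0.05. Among all 14203 genes tested 169 were higher in WT by that measure, and DESeq2 called none of the markers. Between WT and HET, 5 of 9 T cell markers, 5 of 7 myeloid markers, 3 of 8 naive B cell markers and 2 of 11 plasma cell markers were higher in WT at an unadjusted edgeR p under 0.05, and DESeq2 called 4, 2, 3 and 1 of each list as higher. Among all 14354 genes 572 were higher in WT by that edgeR measure. Between HET and KO, 4 T cell, 3 myeloid, 4 naive B cell and 2 plasma cell markers were lower in HET by the unadjusted edgeR p, and DESeq2 called 2, 2, 3 and 2, whereas among all 14354 genes 683 were lower in HET by that edgeR measure. Of the 10 germinal center markers 9 had fitted values higher in HET than in WT and 9 higher in HET than in KO, with 1 at an unadjusted edgeR p under 0.05 in each comparison and 0 called by edgeR or DESeq2. The part of these cells in the light chain values was not tested.

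The genes whose levels most resembled the light chain pattern were found by Spearman correlation of log2(CPM + 1) over the 10 libraries, as a description without a test. For the lambda to kappa constant ratio they were Rcor1 (rho = 0.915, 74.5 to 135 CPM), Wwc2 (rho = 0.894, at most 2.70 CPM), Mon2 (rho = 0.891, 7.75 to 18.2 CPM), Sec1 (rho = 0.886, at most 0.903 CPM) and Ppp2r5b (rho = 0.879, 3.32 to 14.8 CPM). Of these 5, 4 were highest in HET replicate 2, the library with the second highest ratio. For Igkc they were Ms4a4c, Ssr2, Lias and Bcap29 (rho = 0.976 each) and Drap1 (rho = 0.964). Ms4a4c ran from 35.6 CPM in HET replicate 2 to 129 CPM in KO replicate 6, and Ssr2, a subunit of the translocon-associated complex of the endoplasmic reticulum, from 89.6 to 185 CPM in the same 2 libraries. They were taken from 14354 genes, each compared over only 10 libraries.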

How the data were processed

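RNA from NP-binding germinal center B cells was made into SMART-Seq v4 libraries, which were read from both ends (Illumina HiSeq). The authors quantified transcripts with Salmon (0.9.1 per the submitters' processing notes, which also list DESeq2 2.11.40.6) against Gencode vM17, and deposited estimated counts for each transcript without normalization (46.8% of the values were not whole). The TPM values, which the authors deposited beside them, are scaled by Salmon for effective transcript length and library size. Salmon's options were not given in the sources used here. Reads of mutated or near-identical segments may be divided between genes or lost.

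Both were summed per gene by the gene identifier in the transcript name (22380 genes), and summed counts were rounded. Genes were then matched by symbol, and 14 symbols had several identifiers. Genotype and replicate came from the labels, and no library repeated another. Positions and sequence came from Gencode vM21 of GRCm38, whose transcripts had the same lengths for these genes. Genes were tested with edgeR 4.0.16 (quasi-likelihood test, TMM, filterByExpr, Benjamini-Hochberg adjusted p under 0.1) in R 4.3.3, with WT against KO fitted on its own libraries and the other comparisons on all 10. Standard errors are those of log2 fold changes, first group over second. DESeq2 1.42.0 and limma 3.58.1 (on log2(TPM + 1) and log2(TPM + 0.1)) were alternatives, as were other scalings and filters and leaving out each library. Ratios used log2 TPM with no pseudocount and exact permutation tests over libraries (Python 3.11.15, numpy 2.4.6, scipy 1.17.1). The p-values measure the spread between these libraries. Intervals cover counting error only and not the spread between libraries, and duplicate reads were not marked. The scripts were tested on simulated data.

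The genes of interest and the lists around them were chosen with earlier results of these data known. Of each list, genes past the threshold and otherwise the 4 with the highest mean TPM were to be named, and for patterns the 5 most similar genes. Ighg1, Ighd, Igha, Ighg2b, Rag1, Prdm1, Sdc1, Tnfrsf17, Fkbp11, Ccr7, Klf2, Itgam and the lambda joining genes at 0 were named after their values were seen. Some genes of the lists are not reported here by name.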

Additional observations from a re-analysis of the deposited data

How the results depend on the processing

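No light chain gene was called under any of the alternatives or with any library left out, and no ratio passed 0.05. For the ratios, several of these settings could not have passed, whatever the values. They were all those between WT and HET, those that left WT or HET alone with a single library, and the replicate block. Log2 fold changes that turned direction were all small. With limma on log2(TPM + 1) and on log2(TPM + 0.1), these were Iglc2 between WT and KO (0.11 in both), Iglc1 (0.13 in both) and Iglv2 (0.15 in both) between WT plus HET and KO, and Iglv1 (0.0466 in both) and Iglv2 (0.0635 and 0.0636) between HET and KO. With the replicate number as a block, Iglc2 between WT and KO turned to 0.13 and Iglc1 between WT plus HET and KO to 0.0068. Only KO has replicate numbers beyond those of WT and HET. The block fit therefore compares genotypes only over the libraries whose numbers are shared, and it is not a check on all KO libraries. The cause of the turns with limma was not tested. Samples with the same number did not deviate together (correlations of -0.00803 to 0.128), so the numbers were not read as pairs. The block moved the genes called over the whole table from 1 to 6 between WT and KO, 0 between WT plus HET and KO, 4 between HET and KO and 66 between WT and HET, none of them among the 6 genes here. Of the lists around them, the block called, between WT and HET, 5 kappa variable genes, Ighm, Ighd, Fkbp11, Ccr7, Klf2, Trac, Trbc2, Itgam and Lyz2 as higher and Ighg2b as lower in WT, and between WT and KO it called Lyz2.

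Leaving out 1 library turned the direction of these log2 fold changes, given as lowest to highest: -0.22 to 0.10 for Iglc2 and -0.0820 to 0.18 for Iglv2 between WT and KO; -0.11 to 0.10 for Iglc1, -0.0814 to 0.20 for Iglv1 and -0.16 to 0.11 for Iglv2 between WT plus HET and KO; -0.39 to 0.0562 for Iglv1 and -0.57 to 0.23 for Iglv2 between HET and KO; and -0.20 to 0.60 for Iglv2 between WT and HET. Among ratios on the log2 scale, Iglv1 to Iglv2 ran from -0.13 to 0.34 between WT and KO, from -0.21 to 0.26 between WT plus HET and KO, from -0.29 to 0.18 between HET and KO and from -0.0216 to 0.34 between WT and HET. Between WT and HET, Iglc1 to Iglc2 plus Iglc3 ran from -0.11 to 0.0409, lambda to kappa constant from -0.43 to 0.11 and lambda to kappa variable from -0.66 to 0.0587. Where an arm was left with 1 library, that library was assumed to vary like the others.

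DESeq2 called more genes over the whole table than edgeR, which called 1 in each comparison: 10 between WT and KO, 25 between WT plus HET and KO, 515 between HET and KO and 185 between WT and HET. Its calls in the kappa variable list between HET and KO (20) stood against 0 with edgeR, and edgeR called 1 without KO replicate 6. Placing all Iglc2 counts on its shorter transcript, chosen after seeing the data, gave lambda to kappa constant ratios of 0.909 ± 0.106 in WT (SD, n = 2), 1.02 ± 0.266 in HET (SD, n = 2) and 0.832 ± 0.259 in KO (SD, n = 6).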
